A study of Mus musculus with 4 samples.

Results

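The epithelial claudins are 9 genes, Cldn1, Cldn2, Cldn3, Cldn4, Cldn7, Cldn8, Cldn12, Cldn15 and Cldn23, chosen by name as sealing and pore-forming claudins of epithelium. All 9 were found among the 22422 genes of the table. They were measured by RNA sequencing of whole distal colon. The mice were female, aged 6 weeks, and had been given 2% dextran sulfate sodium (DSS), a polysaccharide that injures the colonic lining, for 5 days. One group was wild type. The other, called mutant below, was Elf4fl/fl-Villin-Cre: its Elf4 alleles are flanked by loxP sites, and the villin promoter directs Cre recombinase to intestinal epithelium. Each group had 2 libraries, and all 4 came from DSS-treated mice, so the response to DSS was not measured. All mice are C57BL/6 in the design text, but mutant samples carry C57BL/8 as their strain. No label says whether the libraries of a group came from separate animals or which alleles the wild-type mice carried, so p-values cover the spread between these samples alone, part of which may be technical.

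Claudins are membrane proteins with 4 transmembrane segments that polymerise into the strands of the tight junction, where they meet claudins of the neighbouring cell. Sealing claudins close the space between cells to ions, and pore-forming claudins make channels selective for charge and size. In colon, claudin-3, claudin-4, claudin-7 and claudin-8 are known as barrier proteins, while claudin-2 and claudin-15 form pores for cations. The balance between both kinds is a standard readout of barrier function in colitis.

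Promoters of 4 claudins are shown: the neighbours Cldn4 and Cldn3, which moved in opposite directions, and Cldn7 and Cldn2, which fell. Elf4 encodes a factor of the ETS family, whose members bind sites with the core GGAA. RefSeq promoter windows (GRCm38.p6, the assembly also called mm10) matched 7 of the 9 genes. Each line gives the 250 bases before the RefSeq transcript start, 5′ to 3′ on the gene's strand, with GGAA and its reverse complement TTCC in capitals. Their positions are chr5:134946935-134947184 (minus strand) for Cldn4, chr5:134985964-134986213 (plus strand) for Cldn3, chr11:69964529-69964778 (plus strand) for Cldn7 and chrX:139800558-139800807 (plus strand) for Cldn2.
Cldn4 promoter: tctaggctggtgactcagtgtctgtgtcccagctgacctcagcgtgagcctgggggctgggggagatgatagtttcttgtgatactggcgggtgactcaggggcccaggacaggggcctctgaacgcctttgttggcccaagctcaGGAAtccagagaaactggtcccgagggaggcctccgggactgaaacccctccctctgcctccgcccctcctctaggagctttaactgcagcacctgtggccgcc
Cldn3 promoter: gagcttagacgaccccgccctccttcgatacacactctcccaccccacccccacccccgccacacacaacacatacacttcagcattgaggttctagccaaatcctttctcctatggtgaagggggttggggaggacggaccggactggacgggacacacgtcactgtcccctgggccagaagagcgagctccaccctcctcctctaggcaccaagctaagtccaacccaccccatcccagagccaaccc
Cldn7 promoter: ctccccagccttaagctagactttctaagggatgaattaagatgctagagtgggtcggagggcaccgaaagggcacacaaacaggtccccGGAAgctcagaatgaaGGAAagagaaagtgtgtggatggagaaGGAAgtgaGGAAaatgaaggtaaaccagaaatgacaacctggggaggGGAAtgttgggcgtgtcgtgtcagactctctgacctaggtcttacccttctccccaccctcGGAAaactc
Cldn2 promoter: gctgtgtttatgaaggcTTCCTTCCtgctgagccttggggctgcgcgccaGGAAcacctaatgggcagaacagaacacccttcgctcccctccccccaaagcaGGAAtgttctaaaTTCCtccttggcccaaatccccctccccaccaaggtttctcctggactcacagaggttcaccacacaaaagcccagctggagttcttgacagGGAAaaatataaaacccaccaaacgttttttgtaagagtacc
The Cldn4 window held the core 1 time, that of Cldn3 0 times, and those of Cldn7 and Cldn2 6 times each. The windows of Cldn15, Cldn12 and Cldn1, not shown, held it 4, 2 and 1 times. The transcript start used for Cldn15 lies 1253 bases from the annotated 5′ end of the gene, against at most 20 for the other windows. Cldn7 and Cldn12 had 2 and 3 windows, of which the nearest to the annotated 5′ end was used. The core stood at least 1 time in 93.4% of all 32851 windows of this length in the table, with a median of 3. The longer form CGGAAG, searched on both strands and containing the core, stood in 2 of the 7 windows, those of Cldn7 and Cldn12, against 13.6% of all windows. A match is a string of letters and shows no binding.

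Elf4, the targeted gene, had 1588 and 1938 normalised reads in wild-type colon and 897 and 758 in mutant colon, a log2 difference of -1.09 ± 0.16 (SE; limma adjusted p = 0.0139). Scaled to the pan-epithelial markers described further on, its log2 fold change was 0.45; Elf4 is also made by leukocytes, and cells were not separated. Normalised reads are the authors' counts divided by 1 factor per library, without gene length, and the whole reads behind them ran from 15885028 to 16425954 a library. Fold changes below compare mutant with wild-type colon, as differences of log2(value + 1). Over 22050 genes tested, limma with Benjamini-Hochberg adjustment called 6.86% higher and 8.6% lower at 0.05 (1512 and 1897 genes). These shares are the background for every gene list counted below. The median log2 fold change of all tested genes was 0.11. With equal library totals that median was 0.40 and the calls turned to 4069 higher and 1178 lower; with equal medians they were 1076 and 2703.

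Of the 9 claudins, 4 fell in mutant colon (Cldn2, Cldn3, Cldn7 and Cldn12), 1 rose (Cldn4) and 4 did not pass (Cldn1, Cldn8, Cldn15 and Cldn23). The median log2 fold change of the 9 was -0.80, and 15.5% of all genes passed in either direction. Both mutant libraries lay below both wild-type libraries for 6 claudins (27.2% of all tested genes did) and above them for 1 (35% did), so 7 of 9 were separate beside 62.2% of all genes, and the groups overlapped for Cldn1 and Cldn15. Quasi-likelihood tests in edgeR on the recovered reads called the same 4 lower and the same 1 higher (13.5% and 9.88% of 17337 genes). With 1 library left out, edgeR kept Cldn2, Cldn3, Cldn4 and Cldn7 in all 4 fits, with highest adjusted p of 0.0498, 0.0444, 0.0494 and 0.0429, each without wild type replicate 2. In limma, 0 of the 9 (and 0 of all genes) passed once any 1 library was left out or the variance trend was dropped; at an unadjusted p under 0.05, limma without the trend gave 1 claudin higher and 4 lower, beside 3326 and 2762 of the 22050 genes.

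**Figure D1:**
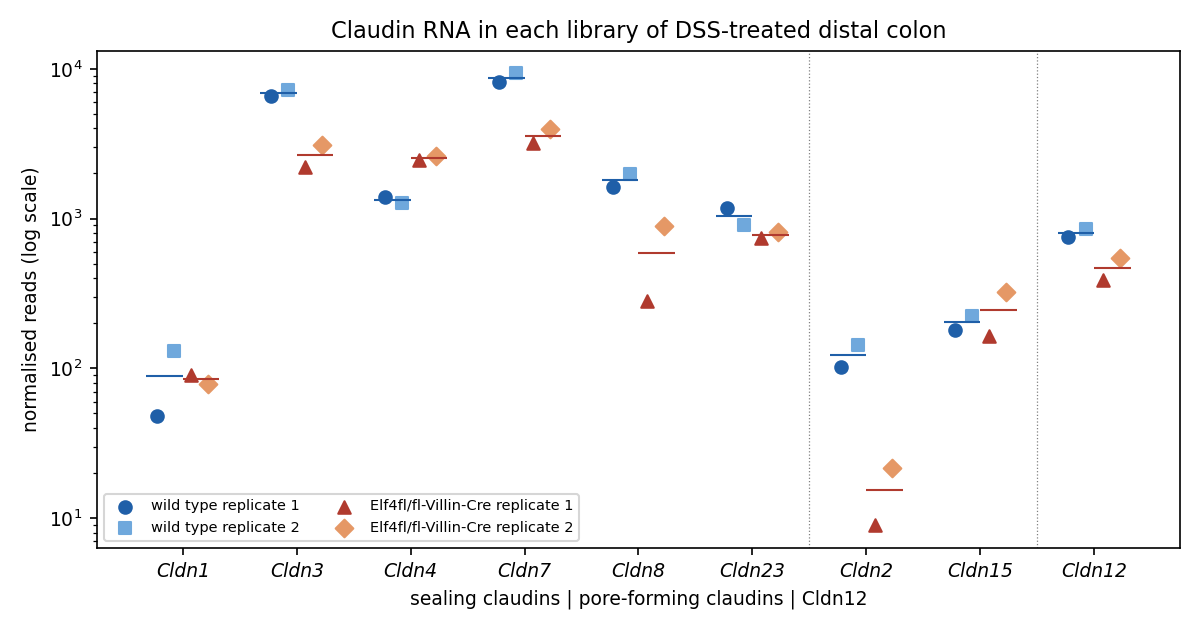
Normalised reads (log axis) of the 9 claudins in each library; points are libraries and short lines are group means (n = 2 each). Cldn4 is the 1 gene whose Elf4fl/fl-Villin-Cre points both lie above wild type, and those of Cldn1 and Cldn15 overlap.

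Among sealing claudins, the most abundant fell. Cldn3 (ENSMUSG00000070473.4, mm10 chromosome 5, 134986214 to 134987472, plus strand, 1 exon) encodes a widespread barrier claudin of gut epithelium. It stood at 6557 and 7192 normalised reads across wild-type libraries and at 2216 and 3089 in mutant colon. Both mutant libraries were low. Group means of 6874 ± 449 and 2652 ± 617 (SD, n = 2 each) differed 2.59-fold, and Cldn3 fell by 1.39 on the log2 scale (SE 0.19; limma adjusted p = 0.0121). Its single exon shares 40 bases with an antisense gene, Wbscr25, so reads there cannot be assigned by position alone.

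Cldn7 encodes a claudin that is also found along the basolateral membrane and binds the adhesion molecule EpCAM. The gene (ENSMUSG00000018569.12, chromosome 11, 69964779 to 69967885, plus strand) had 8103 and 9322 normalised reads across wild-type libraries against 3172 and 3981. Again both mutant libraries lay far under wild type. Mean levels of 8713 ± 862 and 3576 ± 572 (SD, n = 2 each) differed 2.44-fold, and Cldn7 fell by 1.29 on the log2 scale (SE 0.17; limma adjusted p = 0.0117). Over the 4 libraries the profile of Cldn7 was nearest to that of Cldn3 among the other 8 claudins, at a distance of 0.16 between their centred log2 values. Both transcripts therefore stood lower by similar factors in the same libraries.

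Cldn4 went the other way. The gene (ENSMUSG00000047501.3, chromosome 5, 134945119 to 134946934, minus strand, 1 exon) encodes a barrier claudin of the colonic surface that also serves, with claudin-3, as a receptor for a clostridial enterotoxin. It stood at 1402 and 1276 normalised reads across wild-type libraries and at 2442 and 2628 in mutant colon. Neither pair of replicates was far apart, and the groups were clearly separate. Means of 1339 ± 89.3 and 2535 ± 132 (SD, n = 2 each) gave a 1.89-fold difference, and Cldn4 rose by 0.92 on the log2 scale (SE 0.13; limma adjusted p = 0.0129). Under equal library totals, equal medians and quantile scaling its log2 fold change lay between 0.75 and 1.24.

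Cldn4 and Cldn3 are neighbours, transcribed away from each other, with 39280 bases between their 5′ ends and 0 annotated genes wholly between them. The log2 ratio of Cldn4 to Cldn3 in the same library does not move with a scaling factor. It was -2.22 and -2.49 in wild type and 0.14 and -0.23 in mutant colon, a difference of 2.31 between the means. The ratio of Cldn4 to Cldn7 likewise went from -2.53 and -2.87 to -0.38 and -0.60. Of the 8 ratios of Cldn4 to another claudin, 7 were higher in both mutant libraries than in either wild-type library, and that to Cldn1 overlapped. For 6 of these partners separation had to follow, since Cldn4 was higher and the partner lower in both mutant libraries. The count is therefore no further result. With 2 libraries against 2, the exact two-sided permutation test cannot go below p = 0.333, which 14 of the 15 ratios computed reached (0.357 after Benjamini-Hochberg adjustment), so none can pass a threshold of 0.05.

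Cldn8 (ENSMUSG00000050520.4, chromosome 16, 88560828 to 88563183, minus strand, 1 exon) encodes a distal colon claudin that limits the back-leak of sodium. It had 1625 and 1977 normalised reads across wild-type libraries and 279 and 891 in mutant colon. The groups did not overlap, but the mutant libraries stood far apart from each other. Its log2 fold change was -1.84 ± 0.50 (SE; limma adjusted p = 0.0587; 95% interval -3.07 to -0.62), and edgeR gave an adjusted p of 0.0521. It passed with equal medians and with a minimum mean of 10 (limma adjusted p = 0.0405 and 0.0471). In edgeR it passed in 2 of 4 fits without 1 library, those without mutant replicate 1 and without mutant replicate 2 (adjusted p = 0.0146 and 0.000113). The limma value was -1.01 without mutant replicate 1 and -2.68 without mutant replicate 2. Goblet cell markers, 7 genes summed, were also lowest in mutant replicate 1, at 233666 normalised reads. They summed to 416399 in mutant replicate 2 and to 771072 to 935730 in wild type. This was not particular to goblet cells. Pan-epithelial, surface colonocyte and smooth muscle markers were lowest there too, at 98764, 54120 and 59151 against 123890, 65499 and 88730 in mutant replicate 2. The part of these cells in the Cldn8 result was not tested.

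Cldn23 (ENSMUSG00000055976.6, chromosome 8, 35824712 to 35826559, minus strand) encodes a claudin of differentiated surface cells. Its values were 1178 and 909 normalised reads across wild-type libraries and 744 and 810.2 in mutant colon. The groups were separate by a small margin. The log2 fold change of -0.41 ± 0.17 did not pass (limma adjusted p = 0.149; 95% interval -0.82 to -0.0096), and with equal medians it was -0.59 and did (limma adjusted p = 0.0468).

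Cldn1 (ENSMUSG00000022512.2, chromosome 16, 26356642 to 26371841, minus strand) encodes a sealing claudin that is best known from the epidermis. It stood at 48.4 and 130 normalised reads across wild-type libraries and at 90.4 and 78.6 in mutant colon. Both mutant values lay between the wild-type ones. The log2 fold change was 0.09 ± 0.46 (limma adjusted p = 0.918; 95% interval -1.04 to 1.21), with a sign that turned under equal medians, quantile scaling, edgeR and DESeq2. Without wild type replicate 1 it was -0.61, and without wild type replicate 2 it was 0.79.

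The wild-type library with high Cldn1 also held markers of stratified squamous epithelium, which lines the anal canal. The 11 measured squamous markers summed to 218 and 5420 normalised reads in wild type replicates 1 and 2, and to 120 and 931 in the mutant replicates. Krt14, a basal keratin, alone had 64.8 and 2524 in wild type and 69.2 and 340.3 in mutant colon. Krt6a was at 0 in wild type replicate 1, Krtdap in mutant replicate 1 and Sprr3 in both, and 0 of the 11 passed limma (0 at an unadjusted p under 0.05). Their part in the Cldn1 values was not tested, and Cldn1 in mutant replicate 1, where these markers were lowest, was above that in replicate 2.

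Of the pore-forming claudins, Cldn2 had the largest fitted fold change of the 9 claudins. Claudin-2 forms a channel for sodium and water in leaky epithelia and in colon is found mainly in crypts. The gene (ENSMUSG00000047230.6, chromosome X, 139800828 to 139811386, plus strand) had 102 and 142 normalised reads across wild-type libraries and 8.96 and 21.7 in mutant colon, from 99, 135, 11 and 26 reads. Every mutant value lay far under wild type, though the last 2 rest on few reads. Cldn2 fell by 3.01 on the log2 scale (SE 0.46; limma adjusted p = 0.0147), from a mean of 122 ± 28.6 to 15.3 ± 9.04 (SD, n = 2 each), a 7.95-fold difference. Its log2 ratio to Cldn7 was -6.30 and -6.02 in wild type and -8.32 and -7.45 in mutant colon, so Cldn2 was lower also against a claudin that itself fell. All 8 ratios that set Cldn2 against another member put it lower in both mutant libraries. They reuse the same Cldn2 values, so they are not 8 separate results, and the ratio to Cldn4 had to separate.

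Markers of the crypt base went both ways. Of 8 such genes, 1 rose and 1 fell, with a median log2 fold change of -0.21. Smoc2, also made by stromal cells, went from 375 ± 75.4 to 1122 ± 239 normalised reads (n = 2 each, ± SD; limma adjusted p = 0.0118), and Sox9, a crypt transcription factor, fell by 1.58 on the log2 scale (limma adjusted p = 0.048). Lgr5, Ascl2 and Olfm4, stem cell genes, had 7.20 normalised reads or fewer in every library, so a difference in them was hardly detectable at this depth.

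Cldn15 (ENSMUSG00000001739.14, chromosome 5, 136966616 to 136975858, plus strand) encodes a cation pore that lets sodium return to the gut lumen. It stood at 181 and 224 normalised reads across wild-type libraries and at 165 and 322 in mutant colon. The mutant libraries lay on either side of the wild-type ones. The log2 fold change was 0.19 ± 0.33 (limma adjusted p = 0.726; 95% interval -0.61 to 0.997), and -0.28 without mutant replicate 2. That library also had the highest sum of 5 mesothelial markers, 2502 normalised reads against 1592 in mutant replicate 1 and 960 and 921 in wild type. None of the 5 was at 0 in any library, 3 rose (Msln, Wt1 and Upk1b) and 0 fell. Cldn15 was lowest in mutant replicate 1, where the mesothelial sum was above both wild-type sums. Fibroblast markers, 5 genes summed, were also highest in mutant replicate 2, at 45454 normalised reads against 41093 in mutant replicate 1. The part of either list in the Cldn15 values was not tested.

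**Figure D2:**
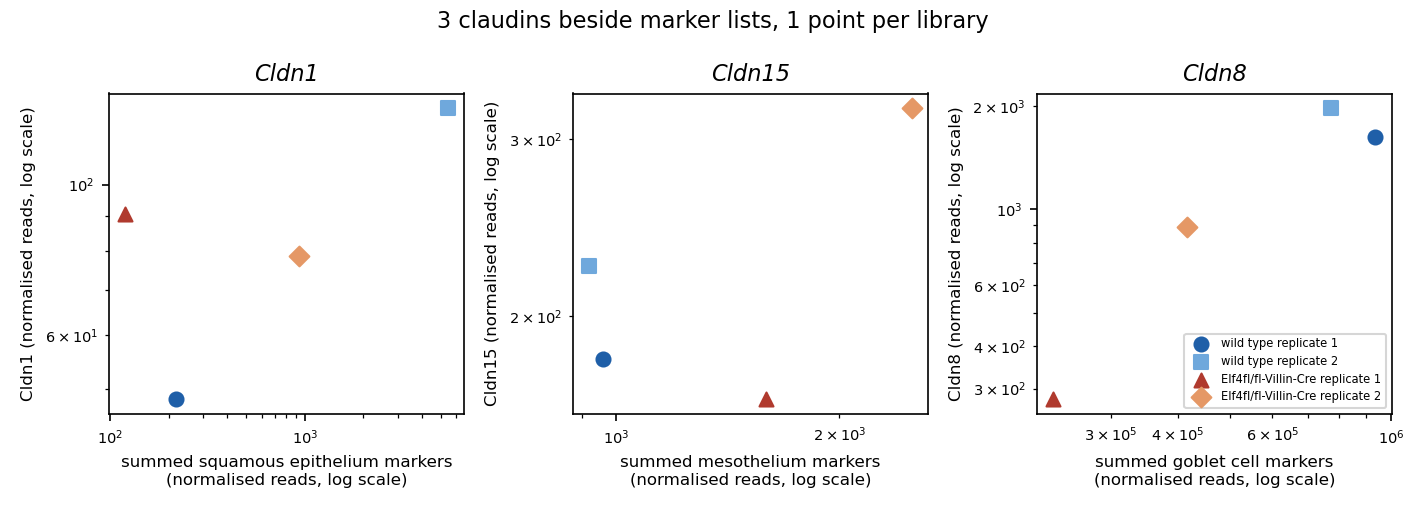
Normalised reads of Cldn1, Cldn15 and Cldn8 (vertical, log axes) against the summed markers of squamous epithelium, mesothelium and goblet cells (horizontal, log axes), 1 point per library; these pairs were chosen after their values were seen. The highest library on each vertical axis for Cldn1 and Cldn15 is also the highest on the horizontal one. The remaining libraries do not keep that order. Cldn15 is lowest in Elf4fl/fl-Villin-Cre replicate 1 (165), where the mesothelial sum (1592) is above both wild-type sums (960 and 921).

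Cldn12 encodes an unusual claudin that lacks the usual scaffold-binding end and has been linked to calcium passage. The gene (ENSMUSG00000046798.14, chromosome 5, 5489537 to 5514958, minus strand) had 755 and 856 normalised reads across wild-type libraries and 388 and 547 in mutant colon. The groups were separate. Cldn12 fell by 0.80 on the log2 scale (SE 0.20; limma adjusted p = 0.0449). That call was near the threshold: it was lost with equal library totals (-0.49, limma adjusted p = 0.1), with quantile scaling (limma adjusted p = 0.0678), without a filter on low values (limma adjusted p = 0.0648) and in 3 of 4 edgeR fits without 1 library (highest adjusted p = 0.12).

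The makeup of claudin RNA differed between the groups. Levels were compared between genes per kilobase of summed exon length, as a share of the 9-gene total. By this measure Cldn3 led in every library, with 44.2% in both wild-type libraries and 32.3% and 34.7% in mutant colon. Cldn7 came next, with 35.3% and 37.1% against 29.9% and 28.9%. That order depends on the length correction. Without it Cldn7 led, with mean shares of 41.5% in wild type and 32.8% in mutant colon against 32.8% and 24.1% for Cldn3.

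Cldn4 took 6.56% and 5.44% of the wild-type total and 24.7% and 20.5% of the mutant total, moving from rank 4 to rank 3 by mean level per kilobase. Cldn8, at rank 3 in wild type with 6.18% ± 0.454 (SD, n = 2), stood at rank 5 in mutant colon with 3.77% ± 2.25. In wild type the means of Cldn8 and Cldn4, 764 and 737 normalised reads per kilobase, did not differ beyond their spread. The pore-forming Cldn15 took 0.724% to 0.819% in wild type and 1.43% to 2.15% in mutant colon, and Cldn2 0.26% to 0.331% against 0.0495% to 0.0926%. The summed level of all 9 per kilobase was 11772 and 12909 in wild type and 5445 and 7064 in mutant colon, 1.97-fold lower by means. Shares are a description of each library with no test.

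**Figure D3:**
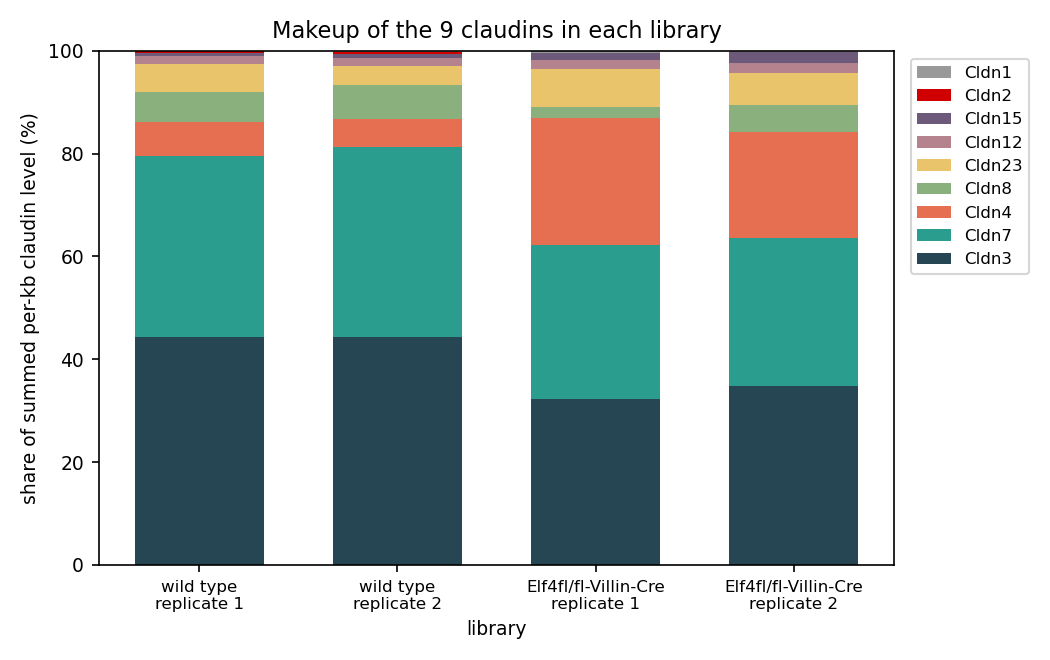
Share (%) of each claudin in the summed level per kilobase of the 9 genes, 1 bar per library. The band of Cldn4 is 5.44% to 6.56% in wild type and 20.5% to 24.7% in Elf4fl/fl-Villin-Cre colon, while Cldn3 remains the largest band in all 4 bars.

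Epithelial marker RNA was lower in the mutant libraries. In whole tissue, fewer epithelial cells, less RNA per cell and a larger share of RNA from other cells cannot be told apart. The part of each was not tested. All 10 pan-epithelial markers fell, from a sum of 300747 and 364304 normalised reads in wild type to 98764 and 123890, with a median log2 fold change of -1.42. Krt8, a keratin of simple epithelium, had a log2 fold change of -2.03 and Vil1, whose promoter drives the Cre, had -1.58 (limma adjusted p = 0.0118 and 0.00942). Of 8 surface colonocyte markers, 6 fell and 0 rose, Car4 and Guca2a with the smallest p (limma adjusted p = 0.00737 and 0.00742). Of 7 goblet cell markers, 2 fell (Fcgbp and Agr2) and 0 rose.

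Claudins were therefore also set against the geometric mean of the 10 pan-epithelial markers in each library, a comparison chosen after seeing the data. On that log2 scale Cldn3 stood at -1.41 in both wild-type libraries and at -1.32 and -1.21 in mutant colon, a difference of 0.14. Cldn7 differed by 0.24. Cldn8 differed by -0.31, with mutant libraries at -4.31 and -3.001 on either side of wild type at -3.42 and -3.27. Cldn3 and Cldn7 thus stood lower by about as much as the mean of the epithelial markers, a log2 difference of -1.53. Single markers ranged from -1.04 (Krt20) to -2.15 (Krt19), so every difference on this scale depends on the markers chosen. Cldn4 went from -3.63 and -3.90 to -1.18 and -1.44, a difference of 2.46, and Cldn2 from -7.40 and -7.06 to -9.12 and -8.29, a difference of -1.48.

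The other members lay above the epithelial markers' change, by 1.12 for Cldn23, 0.73 for Cldn12, 1.73 for Cldn15 and 1.62 for Cldn1. So does much of the tissue on this scale: the median of all tested genes was 1.55. In limma on that scale 5 claudins passed as higher and 1 as lower, beside 76.1% and 0.703% of all genes, so the count of 5 is no result about claudins. An error in the marker level is shared by every gene of a library, so no single p-value of that fit is given. How much of each claudin's difference goes with epithelial content was not tested.

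**Figure D4:**
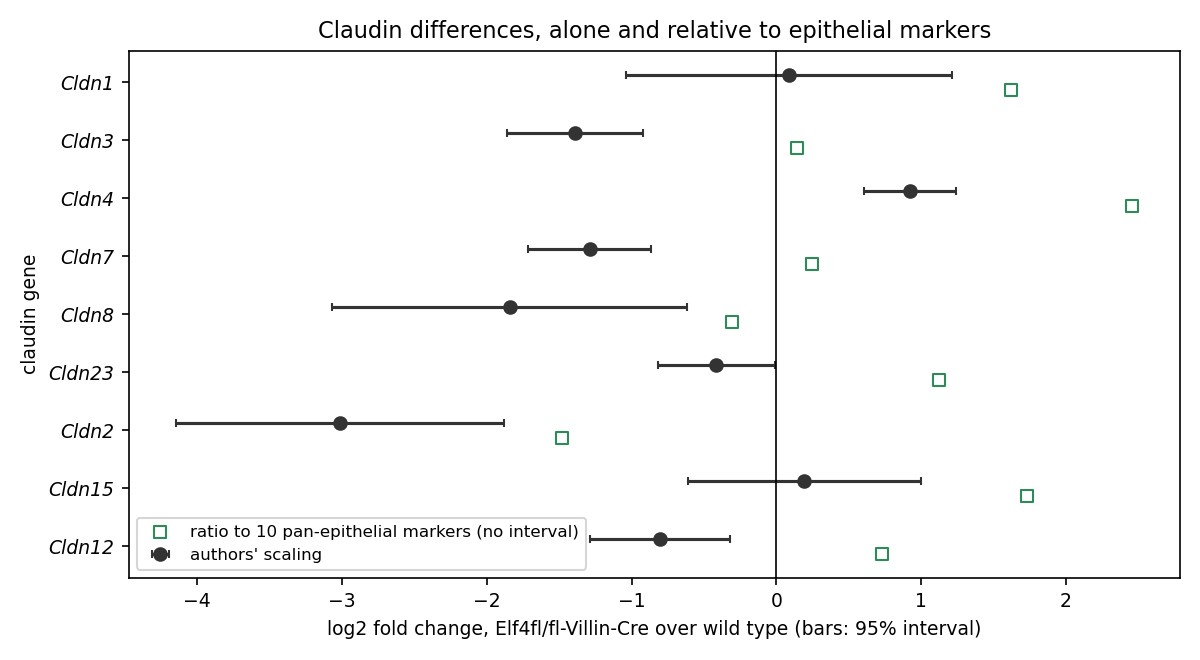
Log2 fold change of each claudin, Elf4fl/fl-Villin-Cre over wild type, with its 95% interval from limma (filled circles), and the difference in its log2 ratio to 10 pan-epithelial markers (open squares, no interval; n = 2 libraries a group). Against the geometric mean of the markers, Cldn3, Cldn7 and Cldn8 lie within 0.31 of 0, Cldn4 is at 2.46 and Cldn2 at -1.48.

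The table held 9 more members of the claudin family, of which 8 passed the filter on low values and 0 were called by limma (0 at an unadjusted p under 0.05). Cldn5, the claudin of blood vessel endothelium, had the highest level per kilobase among them, 135 to 202. In normalised reads it stood at 237 and 192 in wild type and at 286 and 252 in mutant colon (log2 fold change 0.33 ± 0.18, limma adjusted p = 0.272). Of 6 endothelial markers, 1, Pecam1, rose and 0 fell. The Cldn5 mean of 170.5 per kilobase over the 4 libraries lay above both group means of Cldn15, Cldn2 and Cldn1. Cldn14 and Cldn10 came next, at 37.7 to 54.3 and 12.6 to 29.0 per kilobase.

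Partners of the claudins in the tight junction fell in part. Of 22 such genes, 12 fell and 0 rose, and their median log2 fold change was -0.82 (8.6% of all tested genes fell). Among them, Ildr1 and Marveld2, proteins of the tricellular junction, had log2 fold changes of -1.19 and -1.59 (limma adjusted p = 0.00942 and 0.00959). The polarity protein Crb3 went from 1339 ± 45.2 to 680 ± 27.2 normalised reads and the scaffold Tjp3 from 5107 ± 532 to 1921 ± 470 (n = 2 each, ± SD; limma adjusted p = 0.0108 and 0.0127). The 10 others did not pass, the occludin gene Ocln among them at -0.88 (limma adjusted p = 0.0884).

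EpCAM holds claudin-7 in the membrane, and the protease matriptase with its inhibitors controls EpCAM. Of 6 genes of this axis, 4 fell and 0 rose (8.6% of all tested genes fell). All 10 pan-epithelial markers, Epcam among them, fell too. Epcam averaged 38405 ± 4459 normalised reads in wild-type and 15603 ± 2205 in mutant colon (SD, n = 2 each), a log2 fold change of -1.30 beside -1.29 for Cldn7 (limma adjusted p = 0.0167). St14, which encodes matriptase, had a log2 fold change of -1.20, and the inhibitor genes Spint1 and Spint2 had -1.49 and -1.57 (limma adjusted p = 0.00942, 0.0129 and 0.0176). Scaled to the pan-epithelial markers, Epcam, St14, Spint1 and Spint2 had log2 fold changes of 0.23, 0.33, 0.05 and -0.04. Their fall is thus about that of the epithelial markers and not particular to this axis.

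Transcription factors known to act on claudin genes went both ways. Of 12 listed, 11 were in the table, 7 fell and 3 rose. Cdx1 and Hnf4a, factors of intestinal epithelium, had log2 fold changes of -1.83 and -1.78 (limma adjusted p = 0.00961 and 0.00986), and Klf4, of differentiated cells, had -1.36 (limma adjusted p = 0.0142). Snai2, a repressor of epithelial genes that stromal cells make, went from 135 ± 27.3 to 321 ± 41.9 normalised reads (n = 2 each, ± SD; limma adjusted p = 0.0178). The other 2 that rose were Zeb1 and Zeb2, named because the count is small; both are also made by stromal cells or leukocytes. Of 5 fibroblast markers 2 rose and 0 fell, and of 6 macrophage markers 6 rose. Their part in the levels of these factors was not tested.

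**Figure D5:**
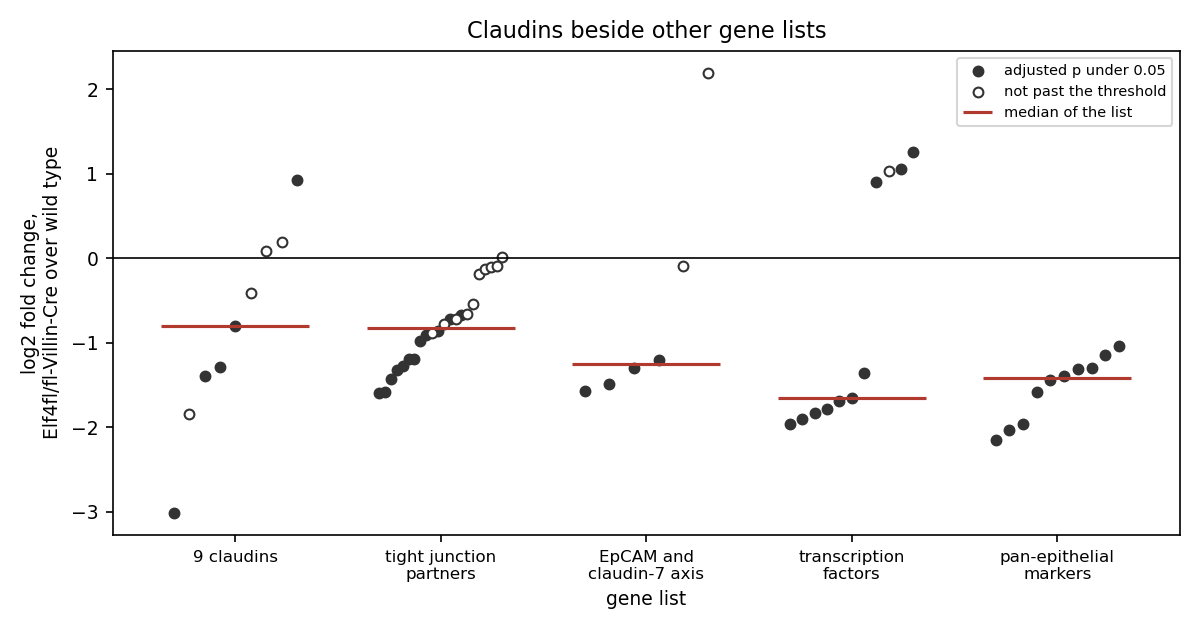
Log2 fold change, Elf4fl/fl-Villin-Cre over wild type, of each measured gene in 5 lists (points, filled where the limma adjusted p is under 0.05; red lines are list medians). The median is -0.80 for the 9 claudins, -0.82 for tight junction partners and -1.42 for pan-epithelial markers, and Cldn4 is the 1 filled claudin above 0.

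Cytokines that are known to alter claudins in cultured epithelium were measured beside them. Of 10 listed, 9 were in the table, 5 rose and 0 fell. Il1b stood at 661 and 368 normalised reads across wild-type libraries and at 3992 and 4110 in mutant colon (limma adjusted p = 0.00745). Il17a had 0 reads in both wild-type libraries and 35.0 and 24.2 normalised reads in mutant colon (limma adjusted p = 0.00965). Il10 and Tgfb1 rose, with log2 fold changes of 2.51 and 1.12 (limma adjusted p = 0.0106 and 0.016). Il6 also rose, from 42.2 and 6.32 normalised reads in wild type to 489 and 370 in mutant colon (limma adjusted p = 0.0177). Il13 had 4.12 normalised reads or fewer in every library. The part of these cytokines in the claudin levels was not tested.

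Markers of leukocytes and stroma were measured in the same libraries. Of 6 neutrophil markers 5 rose and 0 fell, of 5 B and plasma cell markers 1 rose and 0 fell, and of 4 enteric glia markers 2 rose and 0 fell. Of 6 T and NK cell markers 0 passed limma (0 at an unadjusted p under 0.05), and of 5 smooth muscle markers 1 fell and 0 rose.

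Genes whose profile over the 4 libraries lay nearest to each claudin were sought among 16462 protein-coding genes, as a description over 4 libraries. For Cldn4 they were Tpm4, a tropomyosin, and Jam2, a junctional adhesion molecule, at distances of 0.028 and 0.031 between centred log2 values. For Cldn2 they were Ugt2b34 and Acnat1, at 0.20 and 0.22. Cldn3 lay nearest to Slc44a4 and C77080, Cldn7 to Ggact and Ralgapa2, Cldn8 to Fmo4 and Ttll6, and Cldn12 to Chmp6 and S100a16. Cldn1 lay nearest to Ces1e and B3gat2, Cldn15 to Nudt17 and Egfl6, and Cldn23 to Tmem184b and Smco4.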

How the data were processed

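RNA sequencing covered 2 wild-type libraries and 2 of Elf4fl/fl-Villin-Cre (mutant), grouped by the genotype labels and numbered by title. The deposited table gives a normalised signal per gene and library, made by the authors. Dividing each library by its lowest nonzero value gave whole reads (100% of values, tolerance 0.01). The submitters' processing notes name mm10. The sources used here do not give aligner, counter, strandedness or scaling tool. Identifiers were matched to GENCODE mouse release 21 (22376 of 22422), which gave symbols, positions and exon lengths.

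The main test was limma 3.58.1 (R 4.3.3) with a variance trend on log2(value + 1), genotype as the only term, genes with a mean of at least 1, and Benjamini-Hochberg adjustment at 0.05. It had 2 residual and 4.06 prior degrees of freedom. Alternatives were other pseudocounts, filters and scalings, edgeR 4.0.16, DESeq2 1.42.0, a replicate block and leaving out libraries. Scripts were tested on simulated data. Members, the 18 other gene lists and tests were chosen with earlier results of these data known. Named by rule were the members, Elf4 and other claudins past the threshold or highest per kilobase. The rule also allowed up to 4 genes a list by smallest p, or up to 2 where none passed. Each claudin also had its 2 nearest profiles named. Named outside this rule were Zeb1, Zeb2, Il6, Il13, Ocln, Lgr5, Ascl2, Olfm4, Krt14, Krt20, Krt6a, Krtdap and Sprr3. Intervals cover the spread between these samples only. Protein sequences were not used here.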

Additional observations from a re-analysis of the deposited data

How the results depend on the processing

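Cldn2, Cldn3, Cldn4 and Cldn7 kept direction and call in limma with pseudocounts of 0.5 and 5, other filters, equal library totals, equal medians, quantile scaling and a replicate block, and in edgeR and DESeq2. Without a variance trend, and in limma without 1 library, 0 genes and 0 claudins passed; at an unadjusted p under 0.05 the former gave 3326 genes higher and 2762 lower, with 1 claudin higher and 4 lower. Leaving out 1 library gave 0 to 1563 genes higher, 0 to 2191 lower, and 0 to 1 claudins higher and 0 to 5 lower over limma and edgeR (main values 1512, 1897, 1 and 4), where the lone sample is assumed to vary like the other group; the zeros are limma's, which then has 1 residual degree of freedom. The edgeR fits by library gave 476 higher and 809 lower without wild type replicate 2, and 844 higher without mutant replicate 1. Equal library totals gave 4069 genes higher and 1178 lower. Scaling to pan-epithelial markers, added after seeing the data as were the edgeR fits without 1 library, gave 16786 higher and 155 lower, 5 claudins higher and 1 lower; there Cldn3, Cldn7, Cldn12, Cldn23 and Elf4 turned to 0.14, 0.24, 0.73, 1.12 and 0.45 on the log2 scale.

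Cldn1 turned sign with equal medians (-0.084), quantile scaling (-0.13), edgeR (-0.10) and DESeq2 (-0.14), and ran from -0.66 to 0.79 with 1 library left out. It was -0.61 in limma and -0.66 in edgeR without wild type replicate 1, -0.01 and -0.23 without mutant replicate 1, and -0.017 in edgeR without mutant replicate 2. Cldn15 ran from -0.33 to 0.67 with 1 library left out, and was -0.28 in limma and -0.33 in edgeR without mutant replicate 2. Without a length correction Cldn3 took 32.8% and 24.1% of the claudin total in wild type and mutant, Cldn7 41.5% and 32.8%, and Cldn2 0.578% and 0.135%, while Cldn4 moved by less than its SD. Cldn7 then led in place of Cldn3. The ratios between claudins kept their direction in every fit without 1 library and with a pseudocount of 5.

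No label says that a replicate number marks a shared animal or batch, and 2 pairs are too few to take the numbers as a pairing; same-numbered libraries deviated together across genes with r = 0.10 over all tested genes and 0.32 over those with a mean of at least 100, and genes are not independent replicates. A replicate block moved the calls to 2066 higher and 2445 lower and added Cldn8 (limma adjusted p = 0.00777). Depth limits Cldn2 in mutant colon, read 11 and 26 times.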
